A study of Homo sapiens with 4 samples.

Results

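DPYD and MIR137 are neighbouring genes on 1p21, and their contact with the nuclear lamina was compared between 2 human prostate cancer cell lines. The locus was taken as the 40 kb bins of chromosome 1 that touch the window from 96500000 to 100000000 (hg19), which gave 88 of the 71569 bins measured in both lines. DPYD was placed at 97543000 to 98387000 and covers 22 bins, and MIR137 at 98511000 to 98512000 lies in 1 bin. An interval from 98000000 to 98840000, with 21 bins, was set against the other 67 bins of the window. That interval was chosen by the measured values themselves, as the stretch associated only in LNCaP with the largest difference between the lines, so its difference is given as a description. The established line LNCaP comes from a prostate adenocarcinoma and the established line VCaP from a bone metastasis of prostate cancer. The body site LNCaP was taken from is not given here, so these descriptions do not set a primary tumour against a metastasis. LNCaP was grown in RPMI and VCaP in DMEM F12, both with 10% serum and with no genetic change or drug named in the labels. Formaldehyde-fixed, sonicated chromatin was immunoprecipitated with a lamin B1 antibody in 3 reactions per sample, and DNA not treated with antibody served as input. With 1 lamin B1 and 1 input library per line, no difference has a replicate check and no test was made. No RNA was measured, so neither the identity of the lines nor the expression of the genes could be checked here.

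Lamin B1 is a filament protein that lines the inside of the nuclear envelope. DNA recovered with it marks lamina-associated domains, long stretches that are often poor in genes and low in transcription. DPYD encodes dihydropyrimidine dehydrogenase, which catalyses the rate-limiting step in the breakdown of uracil and thymine and also inactivates the drug 5-fluorouracil. MIR137 encodes miR-137, a microRNA abundant in brain that represses, among others, the histone demethylase gene KDM1A, whose product acts as a coregulator of the androgen receptor. In the RefSeq gene order of GRCh38.p14, DPYD follows PTBP2, a splicing regulator gene, and is overlapped by the antisense RNA genes DPYD-AS1 and DPYD-AS2. Next come MIR137HG, the host transcript of the microRNA, MIR2682 and MIR137, and then SNX7, PLPPR5 and PLPPR4. Positions of these neighbours in hg19 were not used here, so no values are given for them.

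The sequences below show what the MIR137 bin and the bin of the DPYD start hold, from RefSeq tables of GRCh38.p14, 5′ to 3′, from the minus strand of chromosome 1. In both mature miRNAs the capitals mark the seed (bases 2 to 8), and each seed occurred in 1 of 2545 mature miRNAs of the table, so neither is shared with another entry.
hsa-miR-137-3p: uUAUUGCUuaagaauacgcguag
hsa-miR-137-5p: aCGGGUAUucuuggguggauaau
In the hairpin of 102 bases, the capitals mark the mature miRNAs, 5p before 3p.
MIR137 hairpin: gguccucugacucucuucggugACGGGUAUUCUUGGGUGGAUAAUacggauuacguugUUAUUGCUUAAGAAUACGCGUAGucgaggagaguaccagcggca
The 250 bases before the outermost of the 2 DPYD starts in the table are printed with matches to the GC box GGGCGG, on either strand, in capitals.
DPYD promoter: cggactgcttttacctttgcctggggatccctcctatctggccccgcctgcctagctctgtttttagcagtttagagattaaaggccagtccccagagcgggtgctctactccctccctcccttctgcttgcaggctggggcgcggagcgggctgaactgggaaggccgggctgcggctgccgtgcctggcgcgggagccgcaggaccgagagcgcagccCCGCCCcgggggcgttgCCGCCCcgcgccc
This promoter was 68.8% G and C with 20 CpG dinucleotides, against medians of 58% and 11 over 35114 promoters of the same length, and 76.6% of those promoters had a lower GC share. It held 2 GC box matches, which did not overlap each other, and no TATAAA on either strand. A GC box match occurred in 42.6% of the promoters and TATAAA in 10.7%.

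MIR137 and, on average, DPYD were enriched for lamin B1 in LNCaP and depleted in VCaP, and within DPYD the LNCaP enrichment lay mostly in the start part of the gene. The deposited unit is the log2 enrichment of the lamin B1 library over the input of the same line. The scaling of ChIP to input is not given, so 0 need not mean equal shares in both libraries. Enriched and depleted here mean above and below 0 on the deposited scale. The median over all bins on that scale was 0.058 in LNCaP and 0.193 in VCaP. The 22 DPYD bins averaged 0.27 ± 0.25 (SD over bins) in LNCaP and -0.53 ± 0.17 in VCaP. The MIR137 bin had 0.45 in LNCaP and -0.88 in VCaP. For comparison, the mean over all bins was 0.07 in LNCaP and 0.20 in VCaP, and on chromosome 1 it was 0.19 and 0.22. The lines therefore differed little in the mean of the chromosome and by 0.81 log2 units over DPYD. The SDs describe bins of 1 library, which are not replicates.

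**Figure D1:**
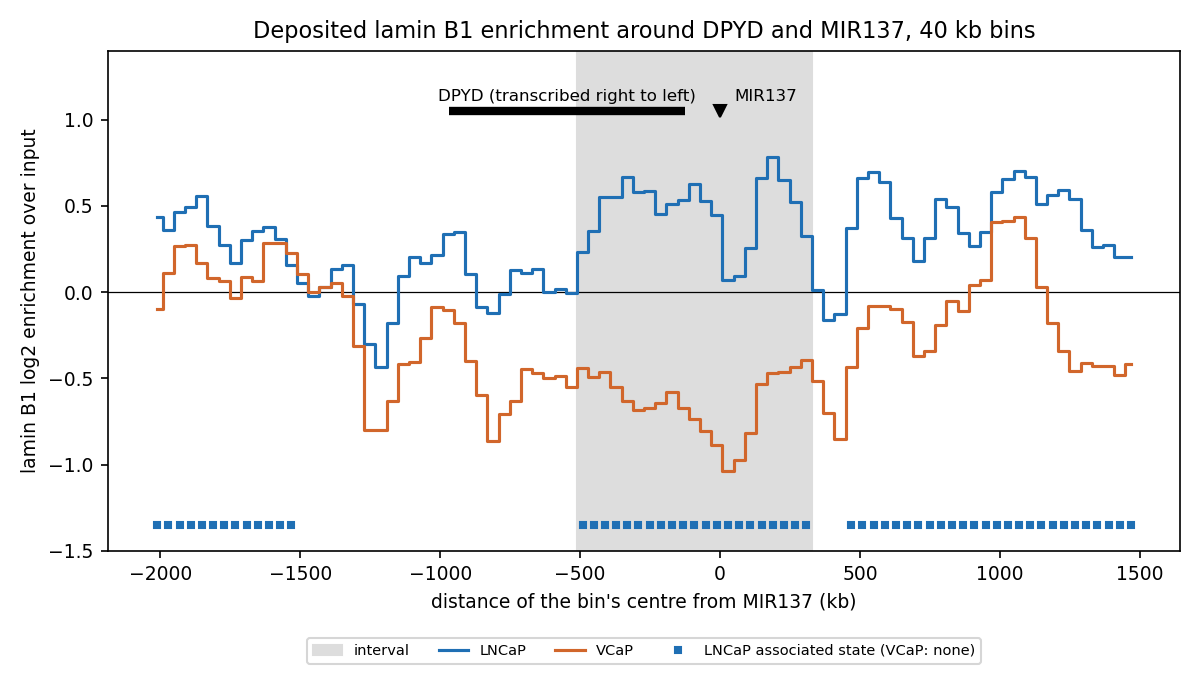
Lamin B1 log2 enrichment over input (vertical axis) in the 88 bins around MIR137, by distance of the bin centre from MIR137 in kb, with 1 line per cell line. The black bar is DPYD, the triangle MIR137, the grey band the interval, and squares mark LNCaP bins in the associated state. In these deposited values LNCaP lies above 0 and VCaP below 0 in all 21 bins of the interval, which was chosen for this contrast. The same holds in 13.2% of all bins. With the averaging described below undone, the bin just past MIR137 is below 0 in LNCaP too, at -0.50.

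DPYD is read from the minus strand, so its start lies at the higher coordinate, inside the interval, and its end outside. The start part comprised the 10 bins from 98000001 to 98400000 and the end part the 12 bins from 97520001 to 98000000. In LNCaP the start part had a mean of 0.50 ± 0.13 (SD over bins) and a range of 0.23 to 0.67. The end part in LNCaP had a mean of 0.08 ± 0.15 and a range of -0.12 to 0.35. In LNCaP the start part lay 0.42 above the end part. In VCaP the start part had a mean of -0.58 ± 0.09 with a range of -0.68 to -0.44, and the end part had -0.49 ± 0.21 with a range of -0.87 to -0.10. The VCaP parts differed by -0.09, less than the SD over the bins of the end part. The gene was split at the edge of the LNCaP associated run, so the LNCaP step follows from that choice and is a description. VCaP was below 0 in all 22 DPYD bins, whereas it was above 0 in 47885 of all 71569 bins.

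The bin that holds the DPYD start, from 98360001 to 98400000, had 0.54 in LNCaP and -0.67 in VCaP. In LNCaP 88.6% of all bins of the genome lay below this value, and in VCaP 2.50% did. The bin that holds the DPYD end, from 97520001 to 97560000, had 0.34 in LNCaP and -0.10 in VCaP. In the deposited values it was the highest DPYD bin in VCaP and had the smallest difference of the gene, -0.44; with the averaging described below undone, both fell to the next bin, from 97560001 to 97600000, with -0.13 in VCaP and a difference of -0.28. The lowest deposited DPYD value lay in the bin from 97680001 to 97720000 in both lines, with -0.12 in LNCaP and -0.87 in VCaP. With the averaging undone, that bin had 0.04 in LNCaP, and the LNCaP minimum of -0.23 lay in the bin before it. The highest deposited DPYD bin in LNCaP, from 98160001 to 98200000, had 0.67, and its VCaP value of -0.63 gave the largest difference within the gene, -1.30. With the averaging undone, this bin kept the largest difference, -1.51. The LNCaP maximum then lay in the bin from 98080001 to 98120000, at 0.754 against 0.749.

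The deposited hidden Markov model assigns each bin 1 of 2 states, and the state with the higher mean enrichment is called associated here. In LNCaP 10 of the 22 DPYD bins were associated, which are the 10 bins of the start part, against 37.9% of all bins and 53.7% of the bins of chromosome 1. In VCaP 0 of 22 were associated, against 44.4% of all bins and 45.1% of chromosome 1. Bins associated in LNCaP and not in VCaP made up 17.2% of all bins and 27.0% of chromosome 1. The DPYD share in LNCaP, 45.5%, was above that of the genome and below that of its chromosome. The interval follows the LNCaP state by its choice, so the state of the start part adds nothing to it. The end part of DPYD was outside the associated state in LNCaP although 8 of its 12 bins were above 0, and its bin from 97560001 to 97600000 reached 0.35. For comparison, LNCaP was above 0 in 40710 of all 71569 bins and in 4118 of the 5667 bins of chromosome 1. Associated bins in LNCaP had a median of 0.40 over the genome, with the lower quartile at 0.26.

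A difference between the lines was called where VCaP lay more than 0.5 log2 units below LNCaP. This held for 20 of 22 DPYD bins and the MIR137 bin, against 9.32% of all bins and 13.4% of the bins of chromosome 1. It also held for 33 of the 67 window bins outside the interval, which include the DPYD end part. Among the 29 bins after the interval it held for 20, so the call was not particular to DPYD and MIR137. The 10 called bins of the end part lay close to that limit, between -0.762 and -0.505, and the other 2 had -0.499 and -0.440. Beyond 1 log2 unit were 8 DPYD bins, all in the start part, and the MIR137 bin, against 0.736% of all bins. Of the 67 bins outside the interval 0 were beyond it. No bin of the window had VCaP more than 0.5 above LNCaP, a call made in 21.3% of all bins. LNCaP was above 0 and VCaP below 0 in 18 of 22 DPYD bins and in the MIR137 bin, against 13.2% of all bins. Outside the interval these signs were seen in 35 of the 67 bins of the window. The window was proposed because of this contrast, so these shares are descriptive.

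**Figure D2:**
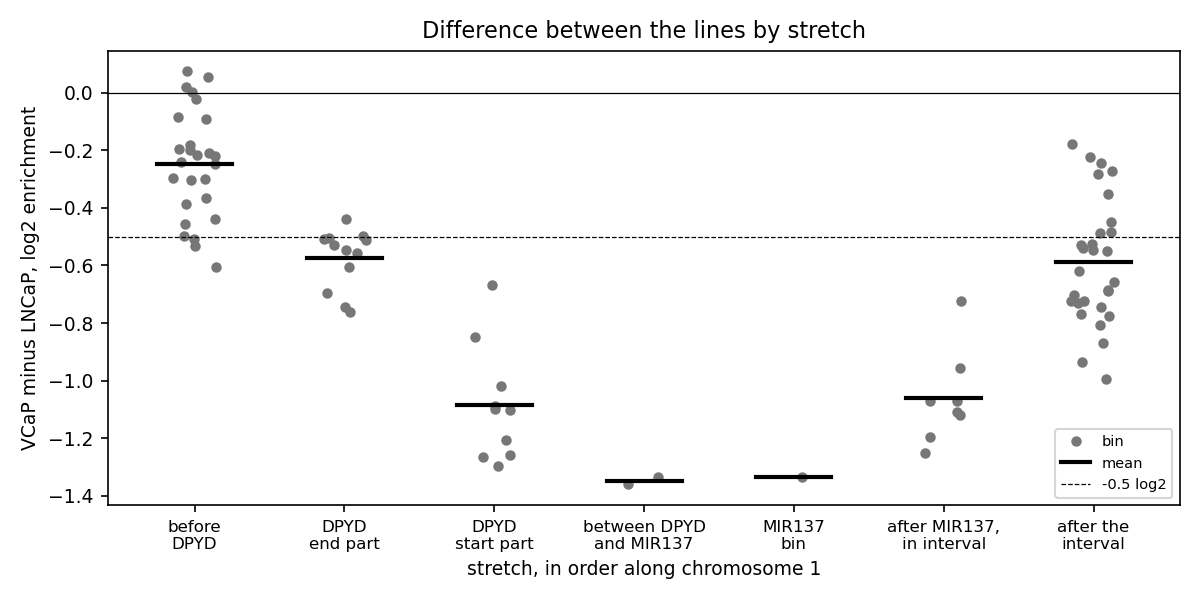
VCaP minus LNCaP log2 enrichment (vertical axis) for each bin (grey points) in 7 stretches in order along chromosome 1, with the mean of each stretch as a black bar and the call limit of -0.5 dashed. The mean falls from -0.25 before DPYD to -0.58 in its end part and -1.09 in its start part, and is -0.59 after the interval.

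The MIR137 bin, from 98480001 to 98520000, differed by -1.33. The noise SD of the difference was 0.20 for a deposited value, which behaves as a mean over 3 entries. It was 0.25 for a single bin with that averaging undone. Both are taken between bins of the same libraries and do not measure variation between libraries. Over all bins the difference had a mean of 0.12 and an SD of 0.50. Only 0.651% of all VCaP bins lay below the VCaP value of the MIR137 bin, whereas 83.8% of LNCaP bins lay below its LNCaP value. The 2 bins between DPYD and MIR137 had 0.63 and 0.53 in LNCaP and -0.73 and -0.80 in VCaP. The first of them, from 98400001 to 98440000, had the largest deposited difference of the window, -1.36. With the averaging undone, the largest was -1.51 within DPYD, from 98160001 to 98200000, and the MIR137 bin had -1.46. The second differed by -1.33. All 3 bins were above 0 in LNCaP and below 0 in VCaP, as were 13.2% of all bins. They lie in the interval that was chosen for this contrast, and as neighbours they share averaged entries, so this is a description.

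The bin just past MIR137, from 98520001 to 98560000, was the lowest of the interval in both lines. Its deposited value was 0.07 in LNCaP and -1.04 in VCaP, the latter the lowest of the 88 bins in VCaP. The deposited values behave as a mean of each entry and the 2 before it, which spreads a single low bin over the 2 bins that follow. With that mean undone, the same bin had -0.50 in LNCaP and -1.32 in VCaP. It was then no longer the lowest VCaP bin of the window: outside the interval 2 bins were lower in LNCaP and 1 in VCaP. The 4 nearest neighbours of the bin past MIR137, 2 on each side, averaged 0.49 ± 0.22 (SD over bins) in LNCaP and -0.73 ± 0.28 in VCaP. The bin lay 0.99 log2 units below them in LNCaP and 0.59 below them in VCaP, against a single-bin noise of 0.18 and 0.27. The MIR137 bin itself had 0.34 in LNCaP and -1.12 in VCaP after undoing, so in VCaP it was already low and the further fall of the bin past it was within the noise, and in LNCaP it was close to the bin before it, at 0.38.

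**Figure D3:**
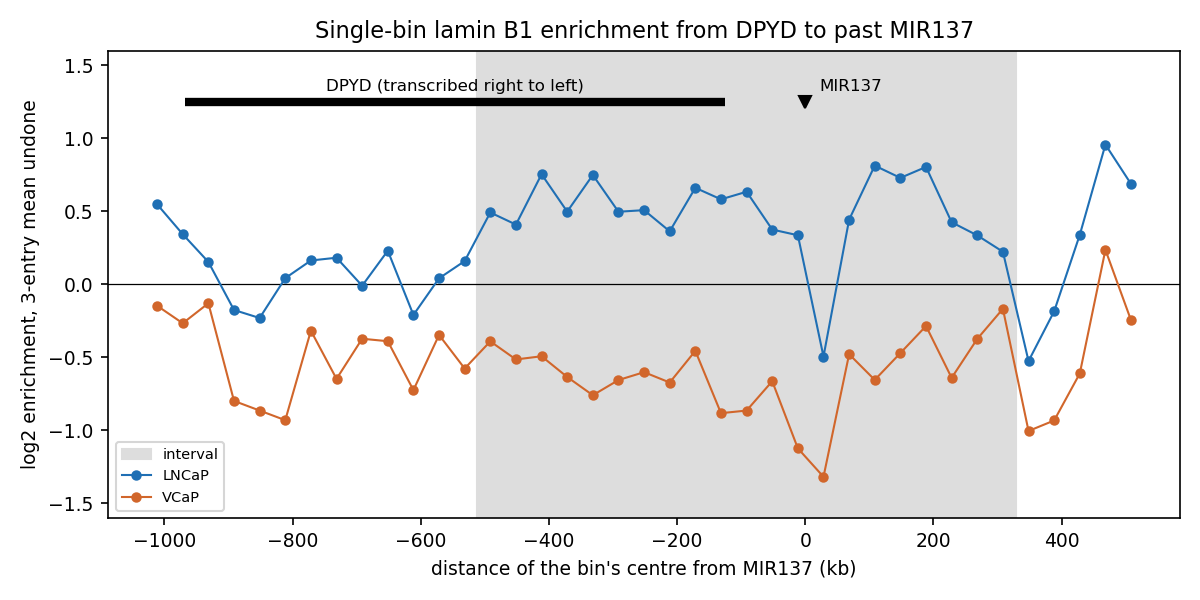
Single-bin log2 enrichment after undoing the 3-entry mean (vertical axis), by distance of the bin centre from MIR137 in kb, from before the DPYD end to past the interval. Points are bins and the grey band is the interval. The bin just past MIR137 is the lowest of the interval in both lines, at -0.50 in LNCaP and -1.32 in VCaP, and in VCaP the MIR137 bin before it is already at -1.12.

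The remaining 8 bins of the interval, past the MIR137 bin, averaged 0.42 ± 0.27 (SD over bins) in LNCaP and -0.64 ± 0.26 in VCaP. They held the highest deposited LNCaP value of the window, 0.78 from 98680001 to 98720000, where VCaP had -0.47. Over the whole interval the mean was 0.48 ± 0.19 in LNCaP and -0.64 ± 0.18 in VCaP. In the deposited values the lowest LNCaP bin (0.07) lay above the highest VCaP bin (-0.39). With the mean undone the ranges overlapped, as the LNCaP minimum was -0.50 and the VCaP maximum -0.17. The interval was chosen for this contrast, so the separation of the deposited values is a description. Outside it the 67 bins averaged 0.26 ± 0.26 in LNCaP and -0.20 ± 0.34 in VCaP. Inside minus outside came to 0.22 for LNCaP and -0.44 for VCaP: on average, LNCaP was higher and VCaP lower in the interval than around it. The stretches around it were uneven. LNCaP averaged 0.18 before DPYD, 0.08 in the DPYD end part and 0.40 after the interval, the last near the 0.48 inside. VCaP averaged -0.07, -0.49 and -0.19 in the same stretches.

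At the edges of the interval the deposited values changed as follows. The bin just before it had -0.004 in LNCaP and -0.55 in VCaP, and the first bin inside had 0.23 and -0.44. The last bin inside had 0.33 in LNCaP and -0.39 in VCaP, and the bin just after had 0.01 and -0.52. With the mean undone, LNCaP went from 0.16 to 0.49 across the edge in DPYD and from 0.22 to -0.53 across the far edge. VCaP went from -0.58 to -0.39 and from -0.17 to -1.01, so at the far edge both lines fell, VCaP by no less than LNCaP. These edge values helped to set the interval and are given without a test.

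In LNCaP 3 associated runs touched the window, of which the interval was the middle one. The run before it ended at 97000000, 1000 kb before the interval, and reached past the window; its 13 bins within the window averaged 0.36. The run after it began at 98960001, 120 kb past the interval, and had a mean of 0.45 over 1040 kb. The interval itself had a mean of 0.48. VCaP had no associated bin in the window. Its bins belonged to 1 run outside the associated state, which reached past the window on both sides, from 94640001 to 101760000, 7.12 Mb long, with a mean of -0.22. Within that run VCaP was still above 0 in 21 of the 88 bins, 14 before DPYD and 7 after the interval, and in none of the DPYD or interval bins. Among all 71569 bins VCaP was above 0 in 47885, and among the 5667 bins of chromosome 1 in 3847.

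Outside the interval the lines shared part of their shape, and inside it the answer depended on the measure. Across the 67 bins outside the interval, the profiles of the lines had a Pearson r of 0.67 and a Spearman rho of 0.62, or 0.64 and 0.59 with the mean undone. Across the 12 bins of the DPYD end part r was 0.89 (0.65 undone). Across the 10 bins of the start part r was -0.65, and -0.05 with the mean undone. Across all 21 bins of the interval r was 0.48 (0.47 undone), whereas rho was 0.24 (0.12 undone). Across the 8 bins past MIR137 r was 0.81 (0.66 undone), whereas rho was 0.55 (0.0 undone). Over the 88 bins of the window r was 0.32, and over all 71569 bins 0.28. These are correlations across bins of 1 library pair per line, in which neighbouring bins share averaged entries, and they carry no p.

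**Figure D4:**
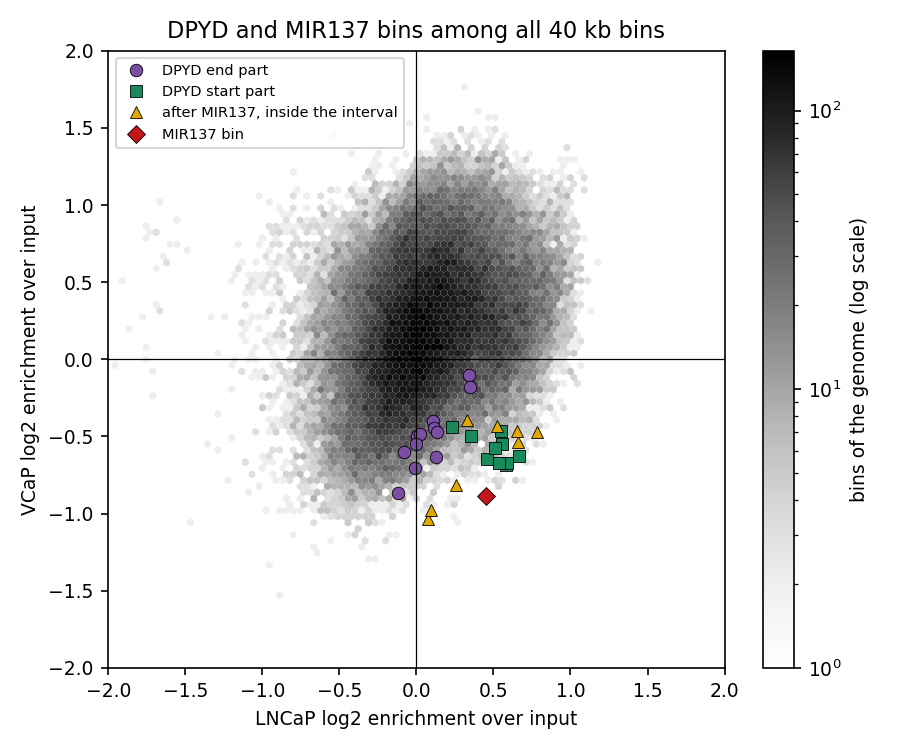
LNCaP (horizontal axis) against VCaP (vertical axis) log2 enrichment for all bins in grey, with darker cells holding more bins on a log scale, and the members' bins in colour. The axes run from -2 to 2 and leave out 64 bins. The DPYD start part and the MIR137 bin lie at the edge of the grey cloud, high in LNCaP and low in VCaP, and the DPYD end part lies nearer its middle in LNCaP.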

How the data were processed

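Lamin B1 ChIP-seq of LNCaP and VCaP was used, with 1 ChIP and 1 input library per line, grouped by the titles in the labels. The deposited log2 values and hidden Markov model states cover 40 kb bins of hg19. The submitters' processing notes name STAR and hg19; the tool, scaling of ChIP to input and filters behind the deposited log2 values are not given in the sources used here. The depth of the libraries is unknown, as no read numbers were used. The mean over 3 entries was undone per chromosome, setting the 3 interleaved series to a median step of 0 between neighbours; this brought the median absolute log2 value of entries over 40 kb from 0.21 to 0.0061 in LNCaP and from 0.33 to 0.012 in VCaP. The procedure was tested on simulated data. Bins touching a gene by any base were counted. Noise is the median absolute difference of bins 3 apart (adjacent bins after undoing), times 1.4826 and divided by the square root of 2. Members, lists and alternatives were chosen with earlier results of these data known. Named bins are those of the gene ends, MIR137, the interval edges and the extremes; the bin past MIR137 is among the extremes. Genes of pyrimidine breakdown, genes most like DPYD and the neighbours had been planned and were not analysed, because gene positions were at hand for GRCh38 and not for hg19. Python 3.11.15, numpy 2.4.6, pandas 2.3.3 and matplotlib 3.10.9 were used.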

Additional observations from a re-analysis of the deposited data

Results flagged for a closer look

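For 2 contrasts within the locus the means of the lines had opposite signs, on an interval that was chosen from these values. Inside minus outside the interval was 0.22 in LNCaP and -0.44 in VCaP. The DPYD start part minus its end part was 0.42 in LNCaP and -0.088 in VCaP, and the latter is smaller than the SD over the bins of the VCaP end part, 0.21. With 1 library pair per line, neither difference between the lines was tested.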

How the results depend on the processing

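For 10 results, 52 alternative values were computed. None changed sign, 47 stayed within the SD over bins (for MIR137 the noise SD, for counts 1.5 times) and 5 moved. Some of the 47 could not move: centring each line subtracts a constant, which leaves contrasts within a line as they were. The interval was chosen from these values, so an unchanged sign is no independent check. Set against the rest of chromosome 1, the VCaP interval lay at -0.86 instead of -0.44. Moving values 1 bin upstream gave a MIR137 difference of -1.11, where the low bin past it enters the mean. A limit of 1 log2 unit left 8 DPYD bins in place of 20. Counting LNCaP bins over 0 as associated gave 18 DPYD bins, and over the genome median 16, in place of 10. Centring on the genome medians, which lie 0.14 higher in VCaP, changed the DPYD difference to -0.94. Undoing the mean was added after seeing the data. Relative to 4 neighbours, the bin past MIR137 then lay at -0.99 in LNCaP and -0.59 in VCaP, against -0.45 and -0.31 in the deposited values. The neighbours of the deposited values were taken further from the bin, so the sets of bins compared are not the same. No paired analysis was possible because there is a single library in each group. Unknown depth leaves the noise between bins as the limit on single bins.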

Other observations

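Outside DPYD and the interval, these low values of both lines were seen with the 3-entry mean undone. From 97200001 to 97240000 LNCaP had its lowest value of the window, -0.56, with -0.80 in VCaP, and the next bin had -0.39 in LNCaP and -1.34 in VCaP, the lowest VCaP value of the window. From 98840001 to 98880000, just past the interval, LNCaP had -0.53 and VCaP -1.01. Within DPYD both lines were also below 0 in the bins from 97600001 to 97680000 (-0.18 and -0.23 in LNCaP, -0.80 and -0.86 in VCaP) and from 97880001 to 97920000 (-0.21 in LNCaP and -0.73 in VCaP). The highest LNCaP value of the window after undoing, 0.96, lay in the bin from 98960001 to 99000000, where VCaP had 0.24. These bins were picked out after their values were seen.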
